A study of Homo sapiens with 12 samples.

Results

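The 9 genes described here belong to plasminogen activation and to coagulation started by tissue factor. They were chosen by gene name for their role, with earlier results of these data known. All 9 were found among the 58735 genes of the count table. PLAU, PLAUR and PLAT are the activators and the activator receptor, SERPINE2 and SERPINB2 are protease inhibitors of the serpin family, F3 and THBD are tissue factor and thrombomodulin, and TFPI and TFPI2 are Kunitz-type inhibitors. RNA of HK-2 cells, an immortalised line of the human proximal tubule, was sequenced in 12 samples, with 3 samples in each of 4 groups. The control group received water. The other groups received, for 48 h, the contrast medium iohexol (75 mg I/mL), the antitumor drug cisplatin (5 μM) or the antibiotic vancomycin (4 mM). All groups are of this single line, grown in DMEM/F12 with fetal bovine serum and antibiotics. The labels do not say whether the 3 samples of a group came from separate cultures, so the p-values measure only the spread between these samples, which may be technical.

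Plasminogen is the inactive form of plasmin, the protease that dissolves fibrin and also degrades matrix proteins. Urokinase (encoded by PLAU) and tissue-type plasminogen activator (PLAT) cut plasminogen into plasmin, urokinase acts largely at the cell surface on its receptor (PLAUR), and serpins block both activators. Tissue factor (F3) binds factor VII to start coagulation, TFPI blocks that complex, and thrombomodulin (THBD) turns thrombin from a clotting enzyme into an activator of protein C. Renal tubule cells are known as a source of urokinase, while thrombomodulin is best known from the endothelium.

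Each library held 14057282 to 18177109 counts in all, and CPM stands for counts per 1000000 counts of the library after scaling by TMM factors. A gene with 0 counts may lie at up to 3 counts, which equal 0.177 to 0.218 CPM on this scale, and this limit covers counting error only. The vancomycin libraries had the largest totals and the lowest mitochondrial share (4.14% to 4.38% of counts, against 5.03% to 5.73% in the control group). Iohexol replicate 3 stood apart from the other iohexol samples, since the chi-square of its counts, per degree of freedom, was 17.5 and 16.5 against them (3.82 between those) and its mitochondrial share was 6.20% (5.27% and 5.32% in those). Without it, 3 of the genes described here were still DEGs with iohexol.

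Of 15 markers of the proximal tubule, 5 had more than 3 counts in every sample, and LRP2, HNF4A, SLC22A6 and SLC22A8 had at most 3 counts in every sample, so the label is only partly borne out by the RNA. The sum over the 15 was 374 to 419 CPM in the control group, 413 to 471 CPM with iohexol, 329 to 342 CPM with cisplatin and 964 to 1000 CPM with vancomycin. The vancomycin sum came mostly from DPP4 (mean 566 CPM, control 139.9 CPM) and GGT1 (363 CPM, control 189.5 CPM). PDZK1 was lower with vancomycin (47.0 CPM, control 68.3 CPM), and 9 of the 15 had a mean under 1 CPM. Of 7 markers of renal epithelium, 5 had more than 3 counts in every sample, and these 5 moved in both directions with cisplatin. CDH6 was at a mean of 64.1 CPM (control, 520.0 CPM), PAX8 at 131 CPM (control, 372 CPM) and EPCAM at 35.4 CPM (control, 101 CPM). KRT8 was at 844 CPM (control, 494 CPM) and KRT18 at 326 CPM (control, 174 CPM). The sum over the 7 was 1592 to 1698 CPM in the control group, 1313 to 1529 CPM with iohexol, 1374 to 1424 CPM with cisplatin and 1967 to 1982 CPM with vancomycin. Of 8 endothelial markers, ERG (12 to 51 counts) and ESAM (47 to 113 counts) had more than 3 counts in every sample, PECAM1 had 0 to 59 counts, and CDH5 and KDR had at most 3 counts in every sample. Their sum was 8.97 to 11.1 CPM in the control group, 10.4 to 13.3 CPM under iohexol, 9.03 to 9.51 CPM under cisplatin and 6.01 to 7.02 CPM under vancomycin. The sum over 6 fibroblast markers, almost all of it from LUM, COL1A1 and DCN, was 115 to 129 CPM in the control group, 105 to 116 CPM with iohexol or cisplatin and 241 to 277 CPM with vancomycin. With cisplatin the sum over 7 leukocyte markers was lower (8.78 to 9.27 CPM, control 14.5 to 17.0 CPM) and that over 6 platelet markers higher (4.80 to 6.85 CPM, control 1.69 to 3.82 CPM), with PF4 at 0 counts in every sample. The part of these shifts in the results below was not tested.

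Drug and control samples were compared by the quasi-likelihood test of edgeR on the deposited counts, fitted over all genes that passed a filter on low counts. A gene is said here to have risen or fallen when its adjusted p (Benjamini-Hochberg, over all genes tested) was under 0.05, and it was a DEG when its log2 fold change was in addition above 1 or below -1. The filter was passed by 8 of the 9 genes in every comparison, and SERPINB2 did not pass. Of these 8 genes, 3 were DEGs with iohexol, where 5.28% of all genes tested were DEGs. With cisplatin 3 were DEGs, against 16.3% of all genes, and with vancomycin 6 were DEGs, against 18.5% of all genes. With the adjusted p alone the numbers were 7, 7 and 8, where 21.0%, 59.8% and 57.9% of all genes passed, so that for cisplatin and vancomycin passing this test was common in the table at large. The median size of the log2 fold change, regardless of sign, was 0.85 over the 8 genes with iohexol (0.24 over all genes), 0.60 with cisplatin (0.41 over all genes) and 1.63 with vancomycin (0.45 over all genes). The drug samples did not overlap the control samples for 8, 7 and 8 of the 8 genes, where 37.9%, 65.1% and 63.2% of all genes tested did not overlap. Since the genes were chosen with earlier results of these data known, these counts and medians are a description and not a test of the set. The 3 comparisons share their control samples and are not independent. In bulk RNA, a change in the share of cells that express a gene and a change in its RNA per cell cannot be told apart.

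**Figure D1:**
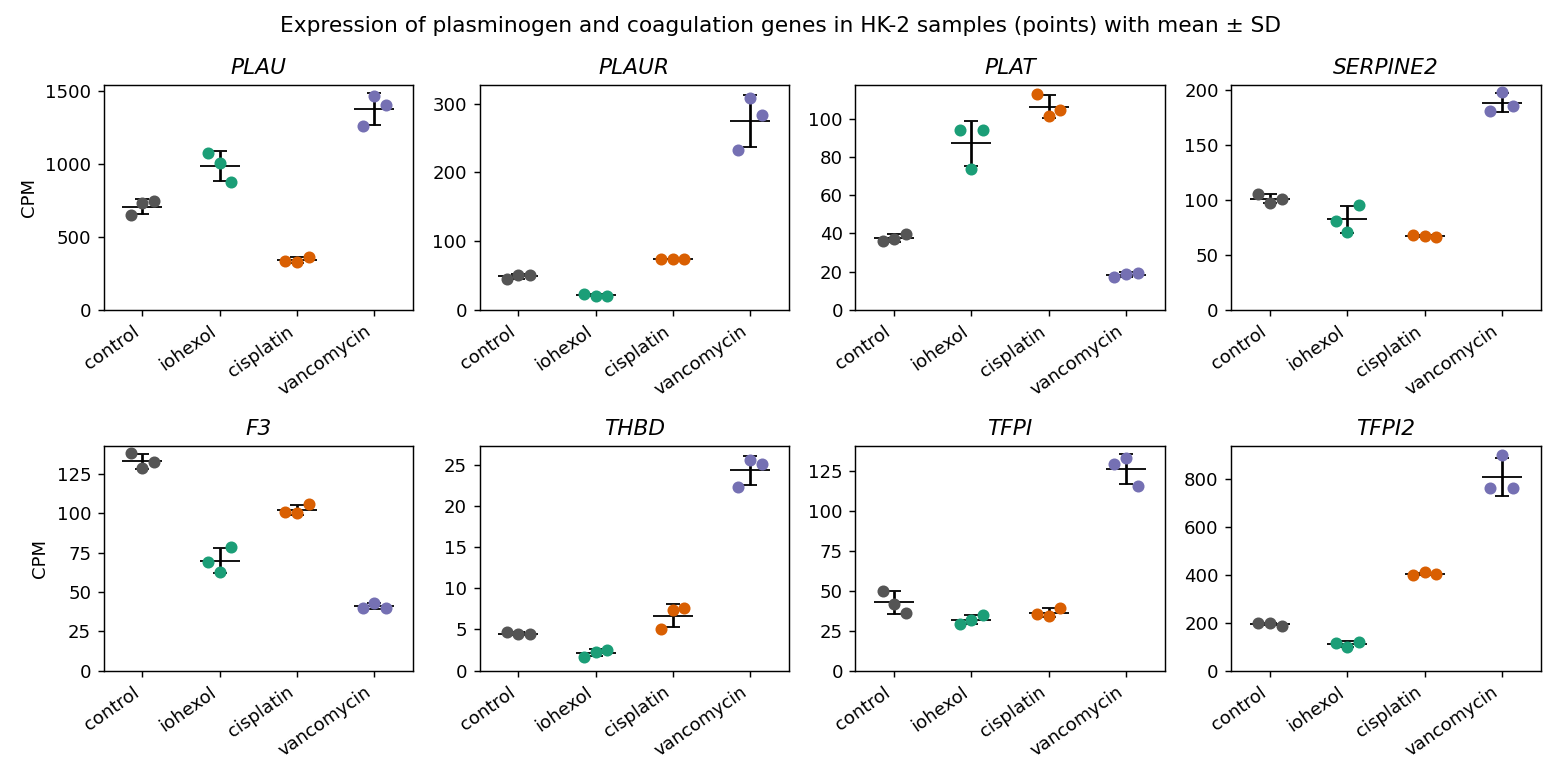
Level of 8 genes in CPM (y axis, from 0) in each sample (points), with the mean (horizontal line) and SD (whiskers) of the 3 samples of each group (x axis). PLAU, PLAUR, SERPINE2, THBD, TFPI and TFPI2 have their highest values in the vancomycin samples. F3 has its highest in the control samples, and PLAT has its highest with cisplatin and its lowest with vancomycin.

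Levels were scaled by the gene lengths of the count table, such as 2950 bases for PLAU and 11714 bases for TFPI. Which transcripts were present was not assessed, so the order of the genes depends on these lengths. Scaled in this way, PLAU had the highest level of the 9 genes in the control group, 239.7 ± 18.0 CPM per kb (SD, n = 3). TFPI2 (72.5 CPM per kb) and F3 (46.3 CPM per kb) came next. SERPINE2 (11.4 CPM per kb) and PLAUR (10.9 CPM per kb) overlapped in their samples, and below them were PLAT (5.69 CPM per kb), TFPI (3.64 CPM per kb) and THBD (1.10 CPM per kb). PLAU stayed first with iohexol and vancomycin, while with cisplatin TFPI2 stood above it (151 against 115 CPM per kb, with no overlap of the samples). F3 ranked below only PLAU and TFPI2 in the control, iohexol and cisplatin groups, while with vancomycin PLAUR and SERPINE2 also stood above it. PLAT was lowest of the 8 genes with vancomycin, and with cisplatin its samples overlapped those of PLAUR. The substrate of both activators, plasminogen (PLG), had 0 to 2 counts in every sample, and factor VII (F7) had 0 to 5 counts.

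The genome windows before the start sites were read to show which of these genes share short sequence motifs. Promoter windows of RefSeq on GRCh38.p14 were matched by symbol for 7 of the 9 genes, not for PLAT and THBD. Of 7 motifs searched on both strands in the 250 bases upstream of the start site, AP-1 and the GC box are described here, chosen with the matches known. The AP-1 motif TGANTCA, which reads the same on both strands, was found for F3, TFPI2, PLAUR and SERPINB2, that is for 4 of the 7 genes. It is held by 6.57% of 35116 windows of this length. That share is by window and the count above by gene, and PLAU and SERPINE2 have more than a single window each. A match is a description of the letters and not evidence of binding. The F3 stretch is given because it holds a pair of AP-1 matches, 223 and 210 bases before the start site at their first base, and 4 matches to the GC box GGGCGG on either strand (a motif found in 42.6% of windows). It covers chr1:94541801-94542009 on the minus strand, the part of the window that lies in no annotated exon, with AP-1 and GC box matches in capitals.
F3: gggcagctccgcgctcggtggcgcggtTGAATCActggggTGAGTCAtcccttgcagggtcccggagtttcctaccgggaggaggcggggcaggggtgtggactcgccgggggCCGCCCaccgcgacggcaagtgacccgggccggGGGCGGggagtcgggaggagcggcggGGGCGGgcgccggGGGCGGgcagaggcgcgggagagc
The other matches are shown with 10 bases on each side and the motif in capitals, at chr7:93890824-93890850 (minus strand) for TFPI2, chr19:43670339-43670365 (minus strand) for PLAUR and chr18:63887593-63887619 (plus strand) for SERPINB2. The TFPI2 and PLAUR matches lie in bases that GENCODE annotates as exon, and the SERPINB2 match does not.
TFPI2: tccccgtgcaTGAATCAgccacccctc
PLAUR: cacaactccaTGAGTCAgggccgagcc
SERPINB2: agtaaaatgtTGAATCActcaaaggac
Of these genes, F3 fell with all 3 drugs, PLAUR and TFPI2 fell with iohexol and rose with cisplatin and vancomycin, and SERPINB2 was not tested. The windows of the other 3 genes held no match to the AP-1 letters.

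PLAU (ENSG00000122861, chromosome 10 of GRCh38 from 73909177 to 73917497, plus strand) encodes urokinase. Its level was 646, 730.5 and 745 CPM in the 3 control samples and 1072, 1009.7 and 874 CPM with iohexol. It was 331, 328 and 362 CPM with cisplatin and 1257, 1467 and 1404 CPM with vancomycin. No drug sample overlapped the control samples, with the cisplatin samples below them and the others above. PLAU rose 1.41-fold with iohexol (log2 fold change 0.50, standard error 0.10, adjusted p = 0.00324) and 1.89-fold with vancomycin (0.92, standard error 0.09, adjusted p = 3.1e-09), in neither case as a DEG, and was 2.08-fold lower with cisplatin (-1.06, standard error 0.06, adjusted p = 1.63e-10). With library size in place of the TMM factors, the cisplatin change was -0.84 and no longer a DEG. The antisense gene C10orf55 shares 916 exon bases with PLAU and had 9 to 48 counts in a sample. The strand setting of the counting is not given, so these counts do not show whether reads in the shared bases were counted for PLAU.

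PLAUR (ENSG00000011422, chromosome 19 from 43646095 to 43670547, minus strand) encodes the urokinase receptor, a membrane-anchored protein that holds urokinase at the cell surface. Its level was 44.3, 50.9 and 50.1 CPM in the control samples, 23.2, 20.4 and 20.6 CPM with iohexol, and 73.5, 73.7 and 73.4 CPM with cisplatin. In the vancomycin samples it was 233, 308 and 283 CPM. All 4 groups were separate from each other, in the order iohexol, control, cisplatin and vancomycin. PLAUR was 2.24-fold lower with iohexol (log2 fold change -1.16, standard error 0.11, adjusted p = 2.18e-05), 1.52-fold higher with cisplatin (0.60, standard error 0.07, adjusted p = 1.85e-06) and 5.50-fold higher with vancomycin (2.46, standard error 0.10, adjusted p = 2.31e-15).

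PLAT (ENSG00000104368, chromosome 8 from 42175233 to 42207724, minus strand) encodes tissue-type plasminogen activator. The control samples held 36.0, 37.3 and 39.8 CPM and the iohexol samples 94.0, 73.7 and 94.0 CPM. The cisplatin samples held 113, 102 and 105 CPM and the vancomycin samples 17.0, 18.7 and 19.5 CPM. PLAT was thus higher than in every control with iohexol and cisplatin and lower with vancomycin, and it was a DEG in all 3 comparisons. Its log2 fold change was 1.23 with iohexol (standard error 0.11, adjusted p = 1.52e-05), 1.496 with cisplatin (standard error 0.07, adjusted p = 1.53e-11) and -1.08 with vancomycin (standard error 0.11, adjusted p = 1.68e-08).

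SERPINE2 (ENSG00000135919, chromosome 2 from 223975112 to 224039319, minus strand) encodes protease nexin-1, an inhibitor of thrombin, urokinase and tissue-type activator. It stood at 106, 97.1 and 100.4 CPM in the control samples and at 80.3, 70.9 and 95.5 CPM with iohexol. It stood at 67.8, 67.3 and 66.0 CPM with cisplatin and at 181, 198 and 186 CPM with vancomycin. The iohexol samples lay just under the controls, and the difference did not pass the test (log2 fold change -0.28, standard error 0.11, adjusted p = 0.0927), although it did in the fit of all 4 groups (adjusted p = 0.023), with no filter (adjusted p = 0.035) and without iohexol replicate 3 (-0.40, adjusted p = 0.0027). SERPINE2 fell with cisplatin (-0.59, standard error 0.07, adjusted p = 7.11e-07) and rose with vancomycin (0.85, standard error 0.09, adjusted p = 9.96e-09), by less than the DEG limit in both. SERPINB2 (ENSG00000197632, chromosome 18 from 63871692 to 63903890, plus strand), which encodes the urokinase inhibitor PAI-2, had 0 counts in the 9 control, iohexol and cisplatin samples. In the vancomycin samples it had 1, 0 and 4 counts, and it was too low for a comparison at this depth.

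F3 (ENSG00000117525, chromosome 1 from 94529225 to 94541800, minus strand) encodes tissue factor, the membrane protein that starts coagulation. It was at 138, 129 and 133 CPM in the control samples, at 68.7, 62.4 and 78.8 CPM with iohexol, at 101, 99.96 and 106 CPM with cisplatin and at 40.0, 43.0 and 39.7 CPM with vancomycin. The 4 groups did not overlap, and every drug sample lay under every control sample. F3 was 1.88-fold lower with iohexol (log2 fold change -0.91, standard error 0.10, adjusted p = 6.38e-05), 1.30-fold lower with cisplatin (-0.38, standard error 0.06, adjusted p = 5.43e-05) and 3.35-fold lower with vancomycin (-1.75, standard error 0.09, adjusted p = 1.11e-13), the last as a DEG. With library size in place of the TMM factors the cisplatin change shrank to -0.16.

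TFPI2 (ENSG00000105825, chromosome 7 from 93885396 to 93890991, minus strand) encodes a secreted Kunitz-type inhibitor related to TFPI that inhibits plasmin and trypsin. Its level was 197, 198 and 188 CPM in the control samples and 115, 97.3 and 120 CPM with iohexol. It was 401, 410.0 and 403 CPM with cisplatin and 763, 900 and 763 CPM with vancomycin. The groups were again separate and in the same order as those of PLAUR. TFPI2 fell with iohexol (log2 fold change -0.80, standard error 0.09, adjusted p = 0.000112), and was 2.08-fold higher with cisplatin (1.06, standard error 0.06, adjusted p = 3.72e-11) and 4.03-fold higher with vancomycin (2.01, standard error 0.09, adjusted p = 5.86e-15).

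TFPI (ENSG00000003436, chromosome 2 from 187464230 to 187565760, minus strand), the inhibitor of the complex of tissue factor and factor VII, was at 50.1, 41.7 and 36.2 CPM in the control samples and at 29.3, 31.3 and 34.8 CPM with iohexol. It was at 35.7, 33.9 and 39.1 CPM with cisplatin, which overlapped the controls, and at 130, 133 and 115 CPM with vancomycin. TFPI was 2.87-fold higher with vancomycin (log2 fold change 1.52, standard error 0.11, adjusted p = 3.05e-11). It fell with iohexol only narrowly past the threshold (-0.40, standard error 0.13, adjusted p = 0.0485), and over the alternatives that adjusted p ran from 0.00741 with no filter to 0.183 without control replicate 1, so that this change did not hold throughout. For TFPI the cisplatin difference did not pass the test (-0.23, standard error 0.11, adjusted p = 0.0675), although it did without control replicate 3 (adjusted p = 0.00601). THBD (ENSG00000178726, chromosome 20 from 23045633 to 23049741, minus strand), which encodes thrombomodulin, had 24 to 407 counts in a sample, the lowest of the 8 genes in the control, iohexol and cisplatin groups. With vancomycin, at 357 to 407 counts, it stood above PLAT (271 to 316 counts). Its level was 4.64, 4.45 and 4.41 CPM in the control samples, 1.66, 2.30 and 2.47 CPM with iohexol, 5.03, 7.39 and 7.56 CPM with cisplatin and 22.3, 25.7 and 25.1 CPM with vancomycin. The groups were separate, in the order seen for PLAUR and TFPI2. THBD was 5.25-fold higher with vancomycin (2.39, standard error 0.14, adjusted p = 1.19e-12), rose by less with cisplatin (0.56, standard error 0.18, adjusted p = 0.0137; 0.0658 without cisplatin replicate 2 and 0.0751 without cisplatin replicate 3) and was 2.07-fold lower with iohexol (-1.05, standard error 0.23, adjusted p = 0.00648). The iohexol change was -0.90 without iohexol replicate 1 and -0.97 with library size in place of the TMM factors, past the test but no longer a DEG in both. The sum over the 8 endothelial markers was lower with vancomycin than in the control group, as given above. ESAM (mean 5.89 CPM in the control group, 3.15 CPM with vancomycin) and PECAM1 (1.33 and 0.0831 CPM) carried most of this, ERG went the other way (2.15 and 2.74 CPM), and the other 5 had means under 1 CPM. A relation of these markers to THBD was not tested.

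**Figure D2:**
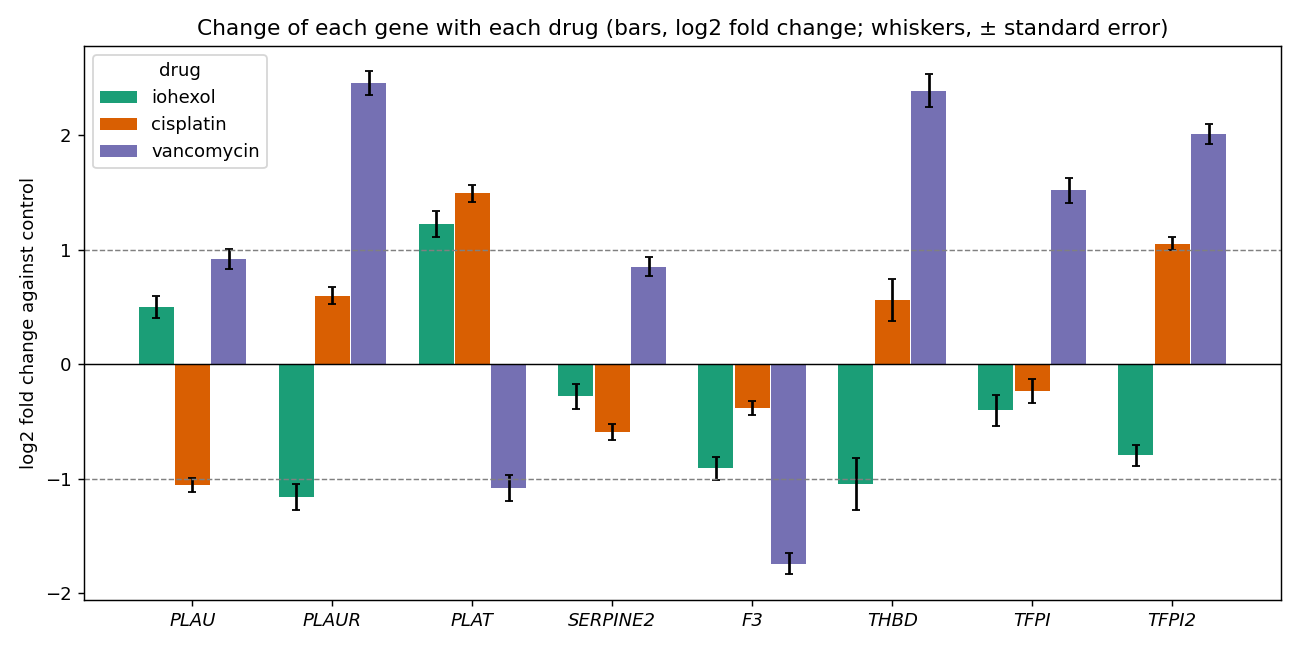
Log2 fold change against the control group (y axis) of 8 genes (x axis) with iohexol, cisplatin and vancomycin (bars), with the standard error (whiskers), and dashed lines at 1 and -1. F3 is the gene below 0 with all 3 drugs, and PLAT is above 1 with iohexol and cisplatin and below -1 with vancomycin.

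The drug groups were also set against each other in a single fit to the 12 samples, which tests the difference between drugs itself. Of the 8 genes, 4 were DEGs between cisplatin and iohexol (17.5% of all genes), 6 between vancomycin and iohexol (20.1% of all genes) and 7 between vancomycin and cisplatin (28.5% of all genes). With the adjusted p alone the numbers were 7, 8 and 8 (54.0%, 56.6% and 64.7% of all genes), and the samples of the drugs did not overlap for 7, 8 and 8 genes (60.9%, 59.4% and 71.2% of all genes). PLAUR differed most between vancomycin and iohexol, 12.8-fold higher with vancomycin (log2 fold change 3.68, standard error 0.11, adjusted p = 1.03e-15). THBD was 11.3-fold and TFPI2 7.31-fold higher with vancomycin than with iohexol. PLAU was 4.04-fold higher with vancomycin than with cisplatin (2.01, standard error 0.09, adjusted p = 2.08e-13) and 2.89-fold lower with cisplatin than with iohexol (-1.53, standard error 0.09, adjusted p = 1.59e-11). PLAT was 5.79-fold lower with vancomycin than with cisplatin (-2.53, standard error 0.11, adjusted p = 9.66e-14), while cisplatin and iohexol differed by 0.29 (standard error 0.10, adjusted p = 0.0156), a call lost without iohexol replicate 2 (adjusted p = 0.129) or cisplatin replicate 1 (adjusted p = 0.0774).

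F3 was lower with vancomycin than with cisplatin (-1.32, standard error 0.09, adjusted p = 8.79e-11) and lower than with iohexol (-0.78, standard error 0.09, adjusted p = 3.5e-07). SERPINE2 was 2.80-fold higher with vancomycin than with cisplatin and 2.29-fold higher than with iohexol. Against iohexol its log2 fold change ran from 0.987 to 1.31 over the alternatives, so that it was not a DEG at the low end. TFPI did not differ past the threshold between cisplatin and iohexol (0.19, 95% interval from -0.03 to 0.41, adjusted p = 0.17), an interval that still allows a modest difference. TFPI2 was 2.00-fold higher with vancomycin than with cisplatin, with a log2 value of 1.00 ± 0.08 (standard error, adjusted p = 2.67e-09) that lay just under the DEG limit. Over the alternatives that value ran from 0.662 to 1.04.

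Ratios of length-scaled levels within a sample do not depend on the scaling between samples, and they were computed for pairs of the genes. Their size does depend on the gene lengths used. PLAU exceeded PLAT 40.3- to 44.0-fold in the control samples, 20.9- to 30.8-fold with iohexol, 6.57- to 7.76-fold with cisplatin and 162- to 176-fold with vancomycin. The activators therefore moved apart with vancomycin and toward each other with cisplatin and iohexol, with no overlap between groups. PLAU to PLAUR ranged from 21.7 to 22.5 among the controls, lay between 64.2 and 74.8 under iohexol, and lay between 6.73 and 7.45 under cisplatin and between 7.20 and 8.15 under vancomycin, these last groups overlapping. PLAU to SERPINE2 ranged from 18.5 to 22.7 among the controls, from 27.6 to 42.9 under iohexol, from 14.7 to 16.5 under cisplatin and from 20.9 to 22.8 under vancomycin, so that only the vancomycin samples overlapped the controls.

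F3 to TFPI ranged from 11.2 to 14.9 among the controls, from 8.12 to 9.56 under iohexol, from 11.0 to 12.0 under cisplatin and from 1.26 to 1.40 under vancomycin. F3 to TFPI2 ranged from 0.605 to 0.658 among the controls, from 0.558 to 0.615 under iohexol, from 0.227 to 0.245 under cisplatin and from 0.0446 to 0.0489 under vancomycin. F3 to THBD ranged from 41.3 to 43.0 among the controls, from 38.8 to 59.3 under iohexol, from 19.3 to 28.7 under cisplatin and from 2.26 to 2.56 under vancomycin. In each of these 3 ratios the vancomycin samples were the lowest, and in the ratios to TFPI2 and THBD the iohexol samples overlapped the controls. These are ratios of RNA and not of protein or activity.

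**Figure D3:**
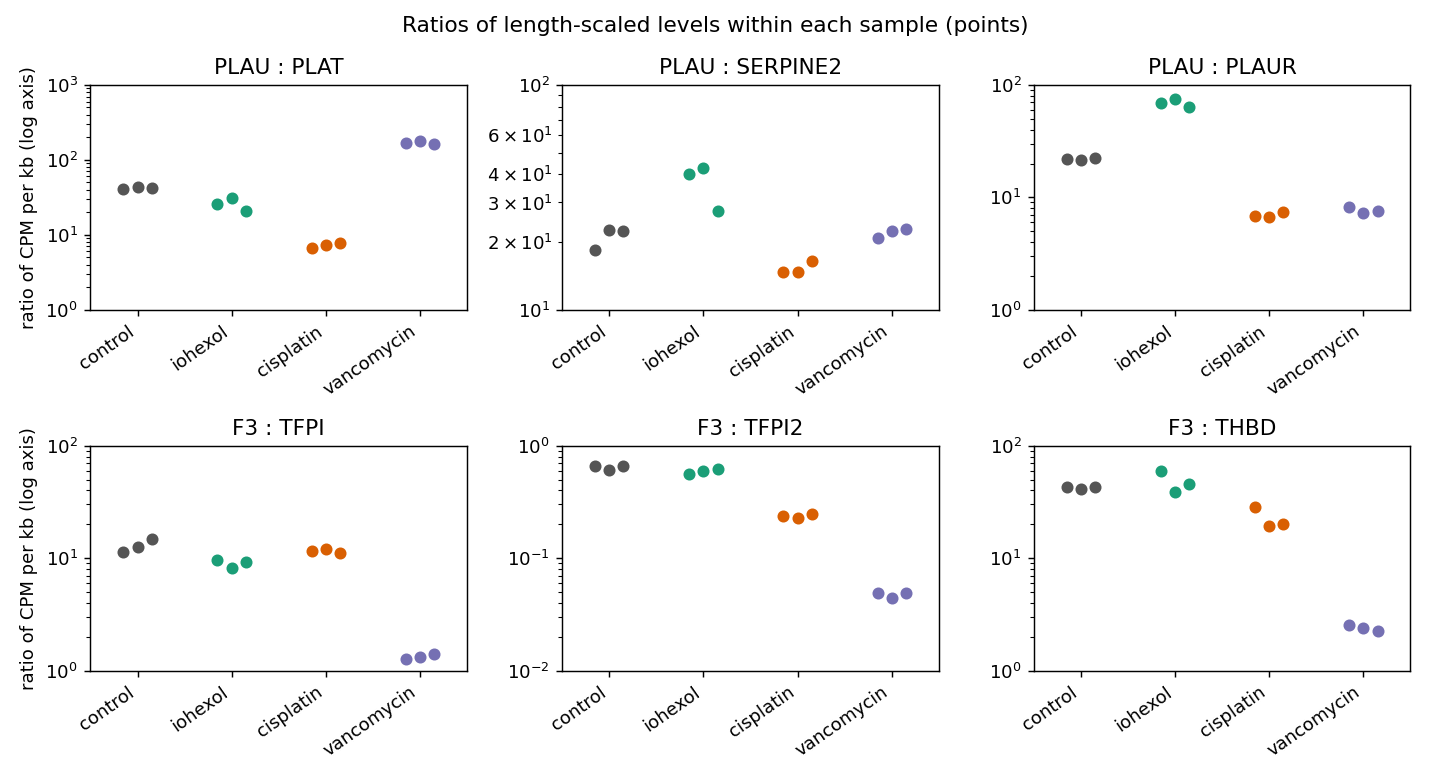
Ratio of length-scaled levels (CPM per kb, log y axis) of 6 pairs of genes in each sample (points), by group (x axis). The ratio of PLAU to PLAT spans 6.57 with cisplatin to 176 with vancomycin, and the 3 ratios of F3 are lowest in the vancomycin samples.

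Beyond the 9 genes, 68 other genes were listed by role, also with earlier results known, so that their counts are a description. They were 30 of the plasminogen system and 38 of coagulation, and 48 of them passed the filter in at least 1 comparison. With iohexol, 1 of 45 tested was an up-regulated DEG (4.02% of all genes were) and 3 were down-regulated DEGs (1.25% of all genes). With the adjusted p alone, 5 rose (11.2% of all genes) and 8 fell (9.77% of all genes). FGB, a fibrinogen chain (log2 fold change -1.75, adjusted p = 6.2e-05), and TGM2, a transglutaminase (-1.17, adjusted p = 2.44e-06), were among the down-regulated DEGs with iohexol. ST14, the protease matriptase, was up-regulated with iohexol (1.49, adjusted p = 0.028) at 1.43 ± 0.289 CPM (SD, n = 3), and lost the call with the replicate number as a block (adjusted p = 0.0558) or without control replicate 1 or 3 or iohexol replicate 1 or 2 (adjusted p from 0.0506 to 0.109).

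With cisplatin, 11 of the 44 other genes tested were down-regulated DEGs, where 8.72% of all genes were, and 0 were up-regulated DEGs, where 7.62% of all genes were. With the adjusted p alone, 32 fell (30.6% of all genes) and 5 rose (29.2% of all genes), and the median log2 fold change was -0.52, against 0.01 over all genes. The largest changes in the plasminogen list were those of ITGA3, an integrin chain (-2.10, standard error 0.07, adjusted p = 7.86e-14), LRP1, a receptor that clears complexes of activators and serpins (-1.52, standard error 0.08, adjusted p = 2.46e-11), MRC2, a collagen receptor that associates with the urokinase receptor (-1.51, standard error 0.08, adjusted p = 2.19e-11), and ITGB3 (-1.39, standard error 0.07, adjusted p = 1.4e-11). VLDLR, HPN, ENO1 and SERPINF2 were down-regulated DEGs as well. In the coagulation list they were F8, at 1.78 ± 0.420 CPM in the control group and 0.222 ± 0.0946 CPM with cisplatin (SD, n = 3), SERPINA10 and GAS6. With library size in place of the TMM factors 6 of the 11 genes were still called down, and the median of all genes shifted by 0.22.

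With vancomycin, 12 of 48 other genes tested were up-regulated DEGs, where 10.8% of all genes were, and 4 were down-regulated DEGs, where 7.65% of all genes were. With the adjusted p alone, 26 rose (29.0% of all genes) and 10 fell (28.8% of all genes). The lysosomal proteases CTSL (1.90, standard error 0.10, adjusted p = 4.63e-14) and CTSB (1.66, standard error 0.09, adjusted p = 1.56e-13), of which cathepsin B can activate pro-urokinase, rose most in the plasminogen list, followed by SERPINA5 and ST14, both at low levels (0.930 ± 0.183 and 1.40 ± 0.105 CPM with vancomycin, SD, n = 3). ST14 missed the threshold without control replicate 3 (adjusted p = 0.054). HPN and SERPINF2, which encodes the plasmin inhibitor alpha-2-antiplasmin, were DEGs too. In the coagulation list FGB had the largest change, from 10.7 ± 1.53 to 1.30 ± 0.152 CPM (SD, n = 3; -3.08, standard error 0.22, adjusted p = 2.69e-11).

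F2, which encodes prothrombin, rose to 2.26 ± 0.252 CPM with vancomycin (SD, n = 3; 2.08, standard error 0.43, adjusted p = 0.000248). Its control counts were 4 to 15, and the log2 fold change was 2.98 without control replicate 3. F2RL2, a receptor cleaved by thrombin, rose to 2.65 ± 0.492 CPM with vancomycin (SD, n = 3; 1.83, standard error 0.37, adjusted p = 0.000183). F2RL2 had 6 to 13 counts in the control samples, and its log2 fold change ran from 1.53 to 2.06 when each sample was left out. ADAMTS13, the protease of von Willebrand factor (1.69, standard error 0.23, adjusted p = 1.17e-06), was also up-regulated. PROC and PROS1, which encode protein C and its cofactor protein S, and F8 were up-regulated DEGs with vancomycin, and SERPINA10, GAS6 and F2RL1 were down-regulated DEGs.

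**Figure D4:**
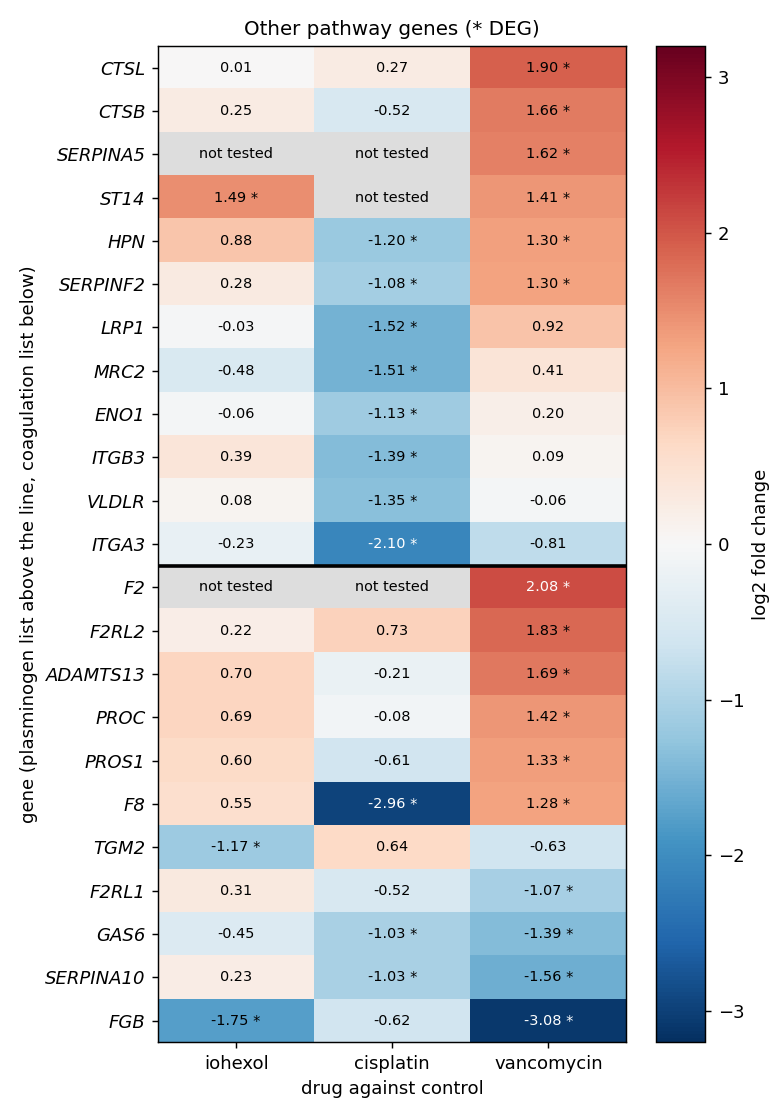
Log2 fold change against the control group (color and printed value) of other pathway genes that were a DEG with at least 1 drug (y axis) for each drug (x axis), with DEGs marked by an asterisk and genes that did not pass the filter in gray. The starred cells of the cisplatin column are all below 0, and FGB has the lowest value of the vancomycin column, -3.08.

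For each gene, genes with the most similar pattern were found by Pearson's r of log2 CPM over the 12 samples, among 17073 genes. With 4 groups of replicates, r mostly reflects the order of the 4 group means, and it is given as a description. The closest gene to THBD was PLAUR (r = 0.985). Among the 8 genes, PLAUR and TFPI2 (r = 0.975) and THBD and TFPI2 (r = 0.960) were also close, while PLAT ran opposite to SERPINE2 (r = -0.94). PLAU was closest to UGT2B7 and FBLN1 (both r = 0.994), PLAUR had r = 0.993 with GBP1, and THBD, after PLAUR, was closest to GBP1 (r = 0.983). TFPI2 was closest to PPIF (r = 0.993) and ELL2 (r = 0.993), and F3 to FRMD6 (r = 0.992) and OSGIN2 (r = 0.989). SERPINE2 was closest to RAB1A (r = 0.992) and to MMP1 (r = 0.990), a collagenase whose mean level ran from 8.20 CPM under cisplatin to 385 CPM under vancomycin. PLAT was closest to ZNF45 (r = 0.980) and FOXRED2 (r = 0.974), and TFPI to RPS3AP6 (r = 0.991) and RPS3AP26 (r = 0.986), both of which are pseudogenes of a ribosomal protein.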

How the data were processed

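The authors deposited the number of reads per gene in each of 12 samples as whole-number counts without normalization. Per the labels, poly(A)-selected RNA was made into libraries with an NEBNext kit, and the submitters' processing notes name CASAVA 1.8, fastp, HISAT2 2.0.5, featureCounts 1.5.0-p3 and DESeq2 1.20.0, without roles. The strand setting and annotation release are not given in the sources used here. Positions of all 58735 genes equal those of GENCODE release 29 (GRCh38), and gene lengths are those of the table.

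From the counts, edgeR 4.0.16 in R 4.3.3 (TMM, filterByExpr at min.count 10 and min.total.count 15, estimateDisp, glmQLFit, glmQLFTest) was run for each drug with the 3 control samples, and once with all 12 samples for contrasts between drugs. The standard error is the size of the log2 fold change divided by the square root of F, and the 95% interval uses a normal approximation. CPM values use the TMM factors of all 12 samples, and log2 CPM a prior count of 2. Total counts were 14057282 to 18177109. Replicates of a group differed by more than sampling noise (chi-square per degree of freedom from 2.34 to 17.5).

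Sequences shared with other genes were assessed by 31-base stretches of the GENCODE transcripts, taken at every 5 bases on either strand. They were 18.3% for PLAU, 24.3% for SERPINB2 and 5.76% or less for the other genes. In simulated counts, 198, 196 and 196 of 200 genes changed 4-fold were called in the right direction for iohexol, cisplatin and vancomycin, among 15265, 15288 and 15550 genes tested. Of the unchanged genes, 3, 4 and 2 were called. Both groups were drawn from the control means, and only genes above a minimum control level were changed. The recovery of smaller changes or of genes at lower levels was therefore not assessed.

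The 9 genes and the lists of other genes were chosen by role with earlier results of these data known. The genes named were the 9, the listed genes that were DEGs with a drug (up to 4 per drug and list with values) and the closest pair in pattern to each. Some items that meet this rule are not reported here. The ratios were chosen with the values known. DESeq2 1.42.0, limma-voom (limma 3.58.1), RLE factors, library size only, other filters, the unadjusted p, no fold minimum, other samples in the fit, the replicate block and leaving out each sample were the alternatives. Figures were drawn with matplotlib 3.10.9.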

Additional observations from a re-analysis of the deposited data

How the results depend on the processing

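For the 8 genes tested, no alternative turned the direction of a change, against the control group or between drugs. Among their 384 values under the alternatives for the drugs against the control group, 371 kept their side of the call, 10 gained it and 3 lost it. The 10 gains all came from dropping the fold minimum, which changes the definition of the call. The unadjusted p and the dropped fold minimum reuse the main log2 fold changes, so their directions could not change. The losses were THBD with iohexol, with library size only and without iohexol replicate 1, and PLAU with cisplatin (-0.84), with library size only. Between drugs, 373 of 384 values kept their side of the call, 10 gained it and 1 lost it, that of SERPINE2 between vancomycin and iohexol. With the adjusted p and no fold minimum, the DEGs among the 8 genes were 7 with iohexol, 7 with cisplatin and 7 between cisplatin and iohexol, and the other pathway genes were 5 up and 8 down with iohexol, 5 up and 32 down with cisplatin, and 26 up and 10 down with vancomycin. The up-regulated other genes with iohexol were 0 with 10 counts in every sample, 0 with the replicate block and 0 to 2 when each sample was left out. With cisplatin they were 2 without a filter and 0 to 1 with a sample left out, and the down-regulated ones were 6 with library size only. Leaving out each sample gave 2 to 3 DEGs among the 8 genes with iohexol, 3 with cisplatin, 6 with vancomycin and 7 to 8 between vancomycin and cisplatin, and 11 to 13 up-regulated other genes with vancomycin.

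The replicate numbers are shared by the groups. With group means removed, same-numbered samples had a mean correlation of -0.0209 (from -0.184 to 0.103). Removing group means ties the mean of the other pairs (0.0106) to this value, so it is no separate reference. Between control and vancomycin, same-numbered samples ran from 0.0432 to 0.103, so a pairing of these was not settled. The block changed no DEG call of the 8 genes, though TFPI then missed the adjusted p with iohexol (0.121) and passed it with cisplatin (0.0364). Library size only moved the share of up-regulated DEGs among all genes from 46.6% to 65.0% for cisplatin against the control group and from 57.0% to 35.2% for vancomycin against cisplatin. With 24 to 37 counts, THBD with iohexol had the largest standard error among the 8 genes against the control group, and several of the other pathway genes named had larger ones.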
